A study of Arabidopsis thaliana with 6 samples.

Results

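The plastid genome genes were the rows of the deposited count table whose locus code starts with ATCG. They numbered 88 of 27978 rows. The libraries came from wild-type Arabidopsis thaliana seedlings (Col) at 7 days of treatment by their labels. They fell into 3 groups of 2: melatonin (MT, an indole compound) at 10 nM, the auxin IAA (indole-3-acetic acid) at 1 nM, and control plates with 0.1% ethanol, the solvent of both compounds. Seedlings were 4 days old when they were moved to the plates. The sample labels give the tissue as seedlings, and the design text names rosette leaves. The control columns of the table carry 72 h in their names while the sample titles say 7 days, so the age of the control plants is uncertain in every comparison against control. The labels do not say whether the replicates were grown as separate cultures, and p-values therefore measure only the spread between these libraries, which may be technical.

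The plastid genome is a small circular genome of bacterial origin. It encodes core subunits of the photosynthetic complexes and the large subunit of the carbon-fixing enzyme Rubisco. It also encodes plastid ribosomal proteins and the core of a bacterial-type RNA polymerase, which works with sigma factors and associated proteins made from nuclear genes. A phage-type polymerase, also encoded in the nucleus, transcribes a further set of plastid genes, and the abundance of plastid RNA depends strongly on nuclear-encoded proteins that bind, process and degrade it. The count table gives codes without names. The reference annotation of assembly TAIR10.1 names its plastid genes by other codes, and 6 of the 88 codes were named in its notes on nuclear relatives. These were ATCG00430 (photosystem II reaction center protein G), ATCG00530 (a CemA-like protein related to proton extrusion), ATCG00660 (ribosomal protein L20), ATCG00670 (the plastid-encoded subunit of the CLP protease, which degrades proteins in the stroma), ATCG00750 (ribosomal protein S11) and ATCG01310 (ribosomal protein L2). These names stand as the notes give them, were not checked against other sources and do not settle what each gene encodes. The remaining 82 are given by code alone, with no name or role.

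Plastid genes took 0.285% of all counts in MT replicate 1 and 0.0222% in MT replicate 2. The share was 0.0208% and 0.0244% in the IAA libraries, and 0.0196% and 0.0207% in the control libraries. MT replicate 1 thus stood apart from all other libraries, at 12.9 times the share of MT replicate 2, while the other 5 spanned a narrow range. The count behind these shares was 138661 in MT replicate 1 and 8880 to 13657 in the other 5, of totals between 40087221 and 65558371, and counting error alone gave a 95% Wilson interval of 0.283 to 0.286% for MT replicate 1 and of 0.0217 to 0.0226% for MT replicate 2. Such intervals cover counting error only, since reads amplified by PCR are not independent molecules. The mean share was 0.154% ± 0.186 in MT and 0.0201% ± 0.000735 in control (SD, n = 2 each), and in IAA it was 0.0226% ± 0.00250 (SD, n = 2). A design of 2 against 2 cannot give a p below 0.3333 in an exact 2-sided permutation test over libraries. That value was found for MT against control and for IAA against control, and MT against IAA gave 0.6667 in the same exact permutation test.

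**Figure D1:**
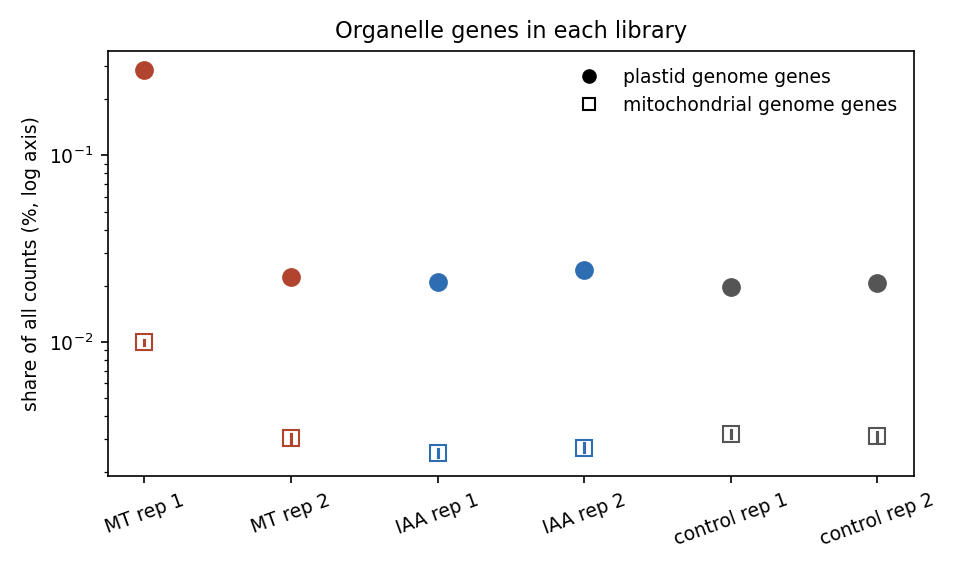
Share of all counts (%, log axis) taken by the 88 plastid genes (filled circles) and the mitochondrial genes (open squares) in each library, with 95% Wilson intervals as vertical lines. MT replicate 1 lies at 0.285% for plastid genes and 0.00994% for mitochondrial genes, above the other 5 libraries in both.

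Genes of the mitochondrial genome, the other organelle genome, moved in the same library. Mitochondrial rows took 0.00994% of counts in MT replicate 1 and 0.00305% in MT replicate 2. They took 0.00255% and 0.00271% in the IAA libraries, and 0.00322% and 0.00312% in the control libraries. The ratio between the MT libraries was thus 3.26 for mitochondrial genes, against 12.9 for plastid genes. Markers of root tissue, which holds few green plastids, were also highest in MT replicate 1. The 17 markers of root endodermis and root hairs summed to 109 and 58.0 CPM (counts scaled to the library total) in MT, 50.1 and 58.6 CPM in IAA, and 25.7 and 40.6 CPM in control, and none of them was at 0 in any library. This list was chosen with earlier results of these data known, so its counts are not independent support for root content. With all 6 libraries, 3 of the 17 markers rose in MT against control in edgeR's test, against 1.89% of all genes tested, and the median log2 fold change over the list was 1.35. Without MT replicate 1 it was 1 of 17, against 0.797%, with a median of 0.83. The markers of green tissue, 25 nuclear genes whose proteins join plastid-encoded subunits in the same complexes, summed to 93073 and 95741 CPM in MT, 98965 and 98787 CPM in IAA, and 96615 and 94686 CPM in control, so both root and green tissue were read in every library. In such bulk samples fewer cells of a type and less RNA per cell cannot be told apart. The part of root content in the plastid values was not tested.

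The same gene led the plastid counts in every library, but the order below it differed in MT replicate 1. ATCG00020 took 52.5% of plastid counts in MT replicate 1 and 14.0% in MT replicate 2. It took 12.9% and 15.9% in IAA, and 13.2% and 13.4% in control. It ranked first in all 6 libraries, and in MT replicate 1 it alone held more plastid counts than the other 87 genes together. ATCG00480 and ATCG00190 ranked next, in that order, in each of the other 5 libraries. ATCG00480 took 1.61% and 10.5% in the MT libraries, 10.4% and 10.4% in IAA, and 11.3% and 11.6% in control. ATCG00190 took 0.740% and 8.67% in the MT libraries, 10.3% and 8.12% in IAA, and 9.62% and 9.13% in control. In MT replicate 1 they stood at ranks 8 and 13. These shares of counts reflect gene length as well as abundance, so they do not order the genes by transcript level.

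Plastid counts were spread over more genes in the other libraries than in MT replicate 1. The genes needed to reach 80% of plastid counts numbered 7 in MT replicate 1 and 20 to 24 in the other 5 libraries. Between pairs of those 5 libraries, the Spearman correlation of plastid counts across the 88 genes ran from 0.952 to 0.975 over 10 pairs. In the 5 pairs that include MT replicate 1 it ran from 0.729 to 0.766. These values describe genes of the same libraries, which are not independent replicates and which share gene length as a source of likeness. IAA replicate 2 showed a smaller shift of the same kind, with 20 genes needed for 80%, against 23 or 24 in the remaining 4 libraries.

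**Figure D2:**
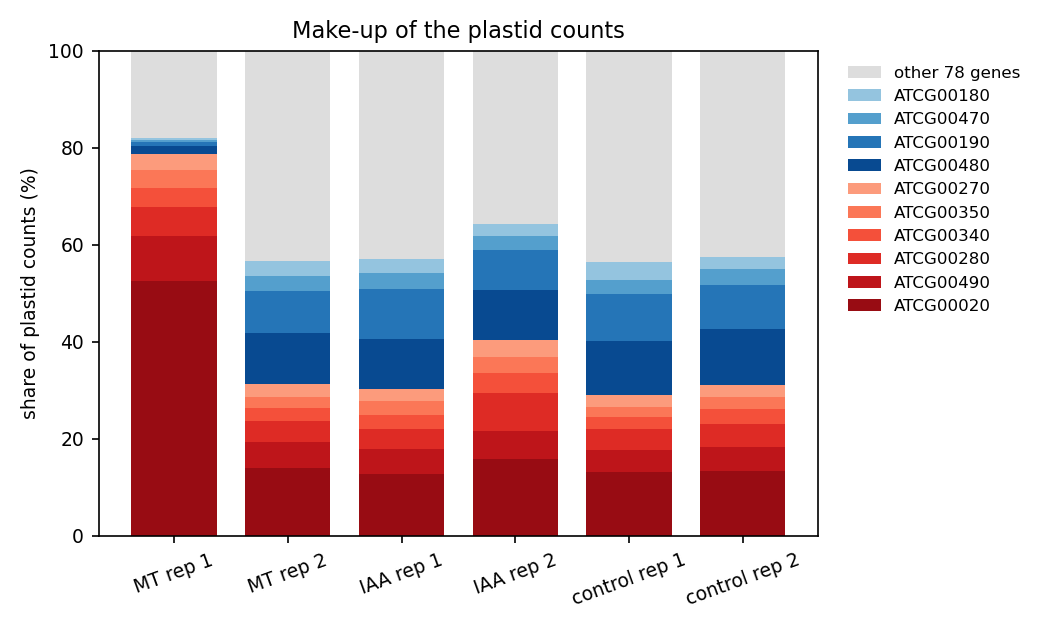
Share of the plastid counts (%) of each library taken by 10 genes and by the other 78 together, stacked to 100%. ATCG00020, the darkest red at the base, fills 52.5% of the bar of MT replicate 1 and 12.9% to 15.9% of the other bars, while the 4 genes in blue shrink in MT replicate 1.

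The excess of plastid counts in MT replicate 1 was unequal among genes. The ratio of its CPM to that of MT replicate 2 ran from 1.10 to 48.2 over the 87 genes with a count in MT replicate 2, with a median of 5.72. In 84 of these 87 genes the 95% counting interval of the ratio lay above 1. The exceptions were ATCG00190, at 1.10 (0.999 to 1.21), ATCG00650 and ATCG00760. MT replicate 1 had the highest CPM of the 6 libraries in 86 of 88 genes, a count given without a share over all genes. In ATCG00190 and ATCG00905 another library was higher. Of the 87 genes, 18 had a ratio under 2, 21 had 2 to 5, 17 had 5 to 10, 23 had 10 to 20 and 8 had 20 or more. The 18 genes with a ratio under 2 held 5.02% of plastid counts in MT replicate 1 and 40.6% in MT replicate 2. They held 41.6% and 35.2% in IAA, and 42.5% and 40.8% in control. The 8 genes at 20 or more held 66.3% in MT replicate 1 and 22.0% in MT replicate 2, with 21.2% and 25.5% in IAA, and 20.1% and 21.3% in control. These classes were cut from the ratio of the MT libraries, so the values of those 2 libraries describe the choice, and the IAA and control values were not used for it.

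A few genes supplied most of the excess. Of the summed CPM by which MT replicate 1 exceeded MT replicate 2, ATCG00020 made up 55.8%. ATCG00490 made up 9.67% and ATCG00280 6.07%. With ATCG00340, ATCG00350 and ATCG00270, the 6 genes made up 82.8%. Without ATCG00020, the plastid share was 0.135% in MT replicate 1, against 0.0190% in MT replicate 2, a ratio of 7.10. The high share of MT replicate 1 therefore did not rest on that gene alone.

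**Figure D3:**
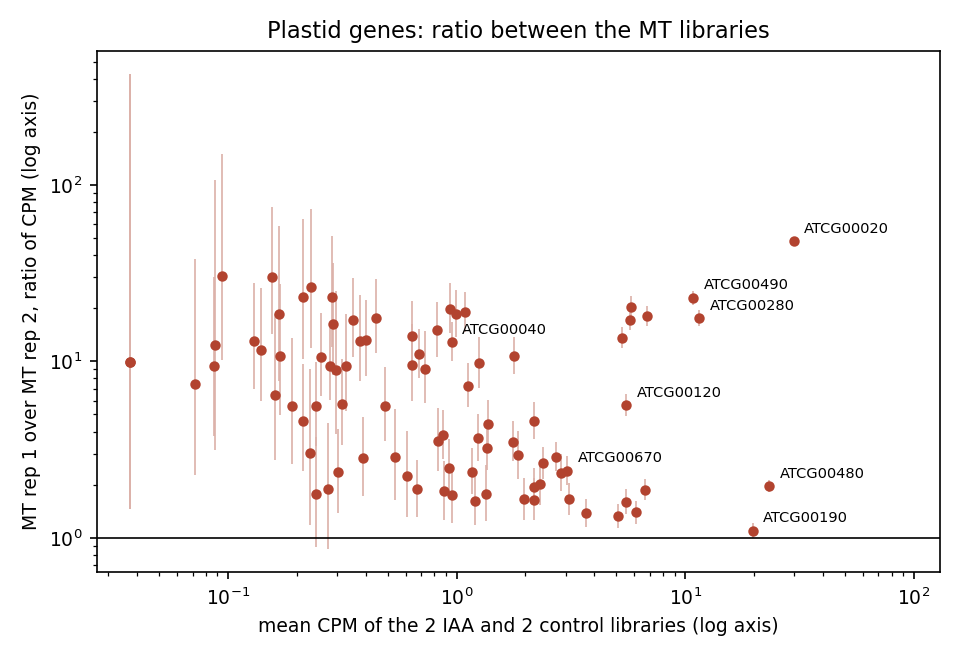
Ratio of CPM between MT replicate 1 and MT replicate 2 (log axis) against the mean CPM of the 2 IAA and 2 control libraries (log axis), 1 point per plastid gene with a count in MT replicate 2, with 95% counting intervals. Genes of like level differ widely: ATCG00020 lies at 48.2 and ATCG00190 at 1.10.

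The ratio was not ordered by the level in the other libraries. Across the 61 genes with at least 10 counts in every library, its Spearman correlation with the mean CPM of the IAA and control libraries was -0.19. Pairs of genes at like level show it directly. ATCG00340 was at 110 and 6.04 CPM in MT, 6.24 and 9.77 CPM in IAA, and 5.04 and 6.17 CPM in control. ATCG00470 was at 13.3 and 7.06 CPM in MT, 6.97 and 7.32 CPM in IAA, and 5.71 and 6.61 CPM in control. Levels outside MT replicate 1 were thus close, whereas the ratio between the MT libraries was 18.1 (95% counting interval 15.9 to 20.7) for ATCG00340 and 1.88 (1.63 to 2.17) for ATCG00470. ATCG00480 was at 45.9 and 23.3 CPM in MT, 21.6 and 25.3 CPM in IAA, and 22.2 and 24.0 CPM in control. ATCG00190 was at 21.1 and 19.2 CPM in MT, 21.4 and 19.8 CPM in IAA, and 18.9 and 18.9 CPM in control, so all 6 libraries lay within a narrow band.

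The gene with the most plastid reads showed the widest gap between the MT libraries. ATCG00020 was at 1497 and 31.1 CPM in MT, 26.8 and 38.8 CPM in IAA, and 25.9 and 27.8 CPM in control. ATCG00490 was at 266 and 11.6 CPM in MT, 10.6 and 14.0 CPM in IAA, and 8.84 and 9.93 CPM in control. In both genes MT replicate 2 lay above both control libraries and below IAA replicate 2. ATCG00350, ATCG00270 and ATCG00680 had the same order, with 75.4 to 107 CPM in MT replicate 1 and 5.26 to 5.56 CPM in MT replicate 2. ATCG00280 was at 169 and 9.60 CPM in MT, 8.51 and 19.2 CPM in IAA, and 8.46 and 10.0 CPM in control. In this gene IAA replicate 2 also stood above the remaining 4 libraries. Further genes with many reads differed less between the MT libraries. ATCG00120 was at 31.7 and 5.61 CPM in MT, 5.40 and 5.94 CPM in IAA, and 4.91 and 5.81 CPM in control. ATCG00180 was at 9.56 and 6.86 CPM in MT, 5.93 and 5.97 CPM in IAA, and 7.18 and 5.36 CPM in control, with a ratio of 1.39 between the MT libraries.

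Of the 6 genes named in the reference notes, all but ATCG00660 lay below the median ratio of 5.72. ATCG01310, for ribosomal protein L2, was at 8.57 and 6.44 CPM in MT, 5.81 and 4.86 CPM in IAA, and 4.86 and 4.75 CPM in control. Its ratio between the MT libraries was 1.33 (95% counting interval 1.14 to 1.56). ATCG00670, for the CLP protease subunit, was at 9.23 and 3.84 CPM in MT, 3.05 and 2.86 CPM in IAA, and 2.85 and 3.44 CPM in control, a ratio of 2.40 (2.00 to 2.90). ATCG00530, for the CemA-like protein, had a ratio of 2.65 (2.16 to 3.28), and ATCG00430 one of 4.41 (3.29 to 6.01). The ribosomal protein genes ATCG00750 and ATCG00660 had ratios of 3.54 (2.38 to 5.41) and 8.93 (3.89 to 25.2). For ATCG00660 this rested on 65 counts in MT replicate 1 and 6 in MT replicate 2. The 6 ratios were below that of the summed plastid counts, 12.9, although the interval of ATCG00660 reached above it. This was not particular to them, since 56 of the 87 genes with a ratio lay under 10. ATCG00870 and ATCG01270 had equal counts in all 6 libraries. The reference lists 7 protein-coding plastid symbols at 2 places, as in the inverted repeat of plastid genomes, and reads of such copies may be split or shared between rows. How the authors counted reads that match several places is not given in the sources used here.

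Differences between groups were tested over the whole table with edgeR's quasi-likelihood test in 1 fit of all 6 libraries, and p-values were adjusted by Benjamini-Hochberg over 21267 genes at a threshold of 0.05. A filter on low counts left 80 of the 88 plastid genes. The 8 that did not pass had at most 12 counts in any library other than MT replicate 1, and 9 to 111 in MT replicate 1. The 80 are therefore not all members. A high count in MT replicate 1 alone did not suffice in this fit, although that library counts towards the filter. ATCG00510, with 111 counts there, did not pass.

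In MT against control, 0 of the 80 plastid genes passed the threshold, against 1.89% of all genes tested. Their median log2 fold change was 1.78, against -0.00306 for all genes tested, and 79 of 80 were positive. The lowest adjusted p among them was 0.108 (edgeR), that of ATCG00040. An unadjusted p under 0.05 was found for 57 of 80, against 13.2% of all genes tested. The count was lower in some other fits. It was 12 of 80 with limma-voom, against 13.1%. It was also lower without either control replicate, but those fits leave a single control library. Their filter kept 87 plastid genes, some of them, such as ATCG00510, through MT replicate 1 alone, so their counts are not compared. The plastid median was 1.94 without control replicate 1 and 1.83 without control replicate 2. ATCG00020 had a log2 fold change of 4.80 ± 1.31 (SE; adjusted p = 0.143, edgeR) and ATCG00490 of 3.86 ± 1.07 (adjusted p = 0.150, edgeR), whereas ATCG00190 had 0.07 ± 0.10. The errors of ATCG00020 and ATCG00490 were both 0.19 without MT replicate 1. DESeq2 called 6 of 80 in this comparison, against 3.87% of all genes tested. These were ATCG00210, ATCG00500, ATCG01010, ATCG01060, ATCG01070 and ATCG01080, named because they were called. Without a filter on low counts edgeR called 6 of 88, against 2.40%, of which ATCG00500 was the only one that DESeq2 also called.

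Without MT replicate 1, the difference between MT and control was no longer visible in the plastid genes. Of 80 genes, 0 were called, against 0.797% of all genes tested, and DESeq2 also called 0. At an unadjusted p under 0.05 there were 0 of 80, against 8.02% of all genes tested. The median log2 fold change was 0.12, with 54 of 80 positive and a range of -0.65 to 1.31. ATCG00020 had 0.20 ± 0.19 (SE) and ATCG00490 had 0.30 ± 0.19, neither past the threshold. This fit has 1 MT library, which is assumed to vary like the other groups. The reverse fit, without MT replicate 2, leaves MT replicate 1 as the only MT library. Its calls therefore restate the high plastid share of that library and support nothing about MT plants. It called 46 of 87 plastid genes in MT against control, against 2.06% of all genes tested, all of them higher, and 35 of 87 in MT against IAA, against 0.253%. Of the 87 genes some passed the filter through that library alone, such as ATCG00510, with 111 counts there and at most 8 in any other library. In IAA against control the same fit called 0, against 0.387%.

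**Figure D4:**
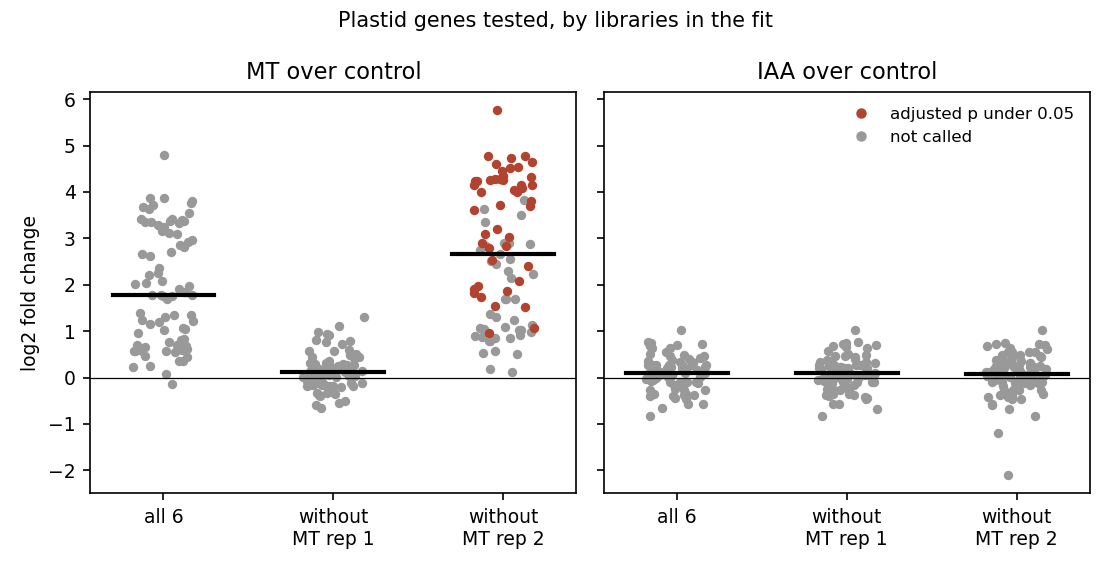
Log2 fold change of each plastid gene tested, for MT over control (left) and IAA over control (right), in the fit of all 6 libraries and without either MT library; bars mark medians and red points have an adjusted p under 0.05. For MT the median is 1.78 with all libraries, 0.12 without MT replicate 1 and 2.66 without MT replicate 2, while for IAA the 3 medians lie between 0.08 and 0.09.

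The largest values that remained without MT replicate 1 had wide errors. The highest log2 fold changes of MT over control were those of ATCG00500 (1.31 ± 0.78 SE), ATCG00820 (1.10 ± 0.74) and ATCG00040 (0.98 ± 0.42), and the lowest were those of ATCG01110 (-0.65 ± 1.27), ATCG00905 (-0.60 ± 0.51) and ATCG00660 (-0.55 ± 1.03). None passed the threshold. ATCG00040 had the lowest p of the plastid genes in this comparison, both with all libraries and without MT replicate 1. It was at 21.5 and 1.67 CPM in MT, 0.976 and 1.15 CPM in IAA, and 0.775 and 0.908 CPM in control, so MT replicate 2 lay above all 4 libraries of the other groups, on 67 counts. Its adjusted p without MT replicate 1 was 0.629 (edgeR's quasi-likelihood test). ATCG00500, by contrast, had 21 counts in MT replicate 2, 21 and 17 in IAA, and 14 and 7 in control, so its fold change without MT replicate 1 rested on few counts.

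Both MT libraries lay above both control libraries in 39 of 80 plastid genes, 48.8%, against 25.1% of all genes tested. MT replicate 1 alone lay above both control libraries in 79 of 80, a count given without a share over all genes. The count of 39 was thus set by where MT replicate 2 lay, and nothing is read from its distance to the share over all genes.

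In IAA against control, plastid genes differed little. Of 80 genes, 0 were called, against 0.701% of all genes tested, and 0 had an unadjusted p under 0.05, against 11.0%. DESeq2 also called 0, against 2.23%, and so did edgeR without a filter on low counts, against 1.11%. The median log2 fold change was 0.09, against 0.01 for all genes tested, and values ran from -0.82 to 1.02. The spread that MT replicate 1 adds to the shared fit widens these errors: without that library ATCG00020 had 0.28 ± 0.15 (SE), against ± 1.17 with it. Without it, 2 of 80 had an unadjusted p under 0.05, against 11.5% of all genes tested. After adjustment 0 were called, against 0.482%. The 2 were ATCG00350, at 0.65 ± 0.23, and ATCG00490, at 0.38 ± 0.15, with adjusted p of 0.336 and 0.412 (edgeR's quasi-likelihood test). ATCG00350 was at 5.87 and 8.28 CPM in IAA, and 3.78 and 5.20 CPM in control, so the groups did not overlap. Both IAA libraries lay above both control libraries in 20 of 80 plastid genes, 25.0%, against 23.9% of all genes tested, and below in 12, 15.0%, against 19.3%. Both shares were near those of all genes.

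The values at the ends of the IAA range again had wide errors. Without MT replicate 1, the highest log2 fold changes of IAA over control were those of ATCG01010 (1.02 ± 0.62 SE), ATCG00700 (0.76 ± 0.72) and ATCG00500 (0.74 ± 0.67). The lowest were those of ATCG00905 (-0.82 ± 0.41), ATCG01050 (-0.67 ± 0.37) and ATCG00140 (-0.58 ± 0.41), and none passed the threshold. ATCG00905 was at 2.03 and 1.15 CPM in MT, 0.991 and 0.968 CPM in IAA, and 2.29 and 1.16 CPM in control. Control replicate 1 stood above control replicate 2, which lay close to the IAA libraries.

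In MT against IAA, at different doses, 0 of 80 plastid genes passed the threshold, against 0.0188% of all genes tested. At an unadjusted p under 0.05 there were 54, against 10.5%. With limma-voom there were 7 of 80, against 10.5%, a share no higher than that of all genes. There were 23 of 87 without IAA replicate 1, against 11.2%, and 20 of 87 without IAA replicate 2, against 6.51%. edgeR without a filter called 0, against 0.0536%. DESeq2 called 4, against 1.20%, which were ATCG00210, ATCG00500, ATCG00530 and ATCG01080. Without MT replicate 1, edgeR called 0, against 0.0232%, and DESeq2 called 0. At an unadjusted p under 0.05 there were then 0, against 6.07%, and the median log2 difference was 0.13, against 1.70 with all libraries. ATCG00020 then had a log2 difference of -0.076, against 4.52 with all libraries. The log2 ratio of the summed plastid share was -0.024 without that library, against 1.82 with it.

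Among well-covered genes, those highest in MT replicate 1 also differed between the IAA libraries. Of the 17 plastid genes with at least 100 counts in every library, 7 had a ratio of 10 or more between the MT libraries. In these 7 the level of IAA replicate 2 was 1.31 to 2.25 times that of IAA replicate 1, with the 95% counting interval above 1 in all 7. In the other 10 it was 0.717 to 1.17 times, with the interval above 1 in 1 and below 1 in 2. The summed level of the 7 genes was 68.2 and 105 CPM in IAA, and 60.8 and 69.2 CPM in control. That of the 10 was 83.0 and 83.1 CPM in IAA, and 78.8 and 81.8 CPM in control. ATCG00280 was the highest, at 2.25 (2.02 to 2.51), and ATCG00190 was at 0.925 (0.849 to 1.01). The control libraries showed a smaller difference, with overlapping ranges. Which replicate stands on top in the IAA and control ratios is a free choice. Their direction, and the sign of any correlation with the MT ratios, follow from that choice. The ratio of control replicate 2 to control replicate 1 was 1.05 to 1.37 in the 7 genes, with the interval above 1 in 4 and below 1 in 0. In the other 10 it was 0.747 to 1.26, with the interval above 1 in 1 and below 1 in 1. The 17 genes include the 12 with the highest mean share of plastid counts, the minimum of 100 counts was chosen with the table in view, and the genes fell into 2 clusters, so no correlation is given for them. Over the 61 genes with at least 10 counts in every library, the Spearman correlation of the MT and IAA ratios was 0.35, with counting error large in most of these genes, and that of the MT and control ratios was 0.22.

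**Figure D5:**
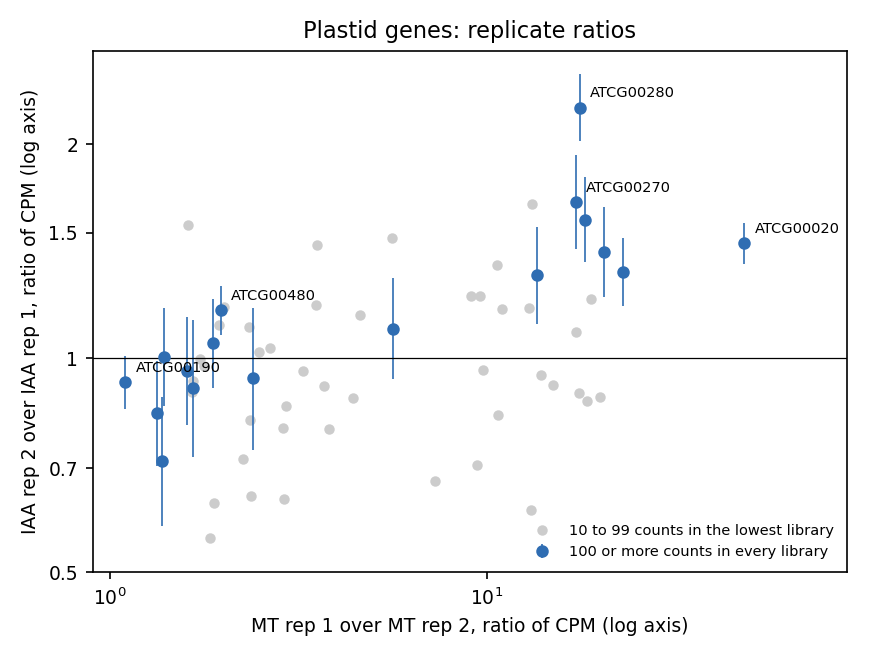
Ratio of CPM between IAA replicate 2 and IAA replicate 1 against that between MT replicate 1 and MT replicate 2 (both log axes), for the 61 plastid genes with at least 10 counts in every library. The 7 genes with at least 100 counts in every library (blue, with 95% counting intervals) and an MT ratio of 10 or more lie at 1.31 to 2.25 on the vertical axis, and the other 10 blue genes at 0.717 to 1.17, while grey genes with fewer counts lie on both sides of 1 at high and low MT ratios.

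Nuclear genes that serve plastid transcription and RNA metabolism were not called in any comparison. The shares called over all genes, 1.89% in MT against control, 0.701% in IAA against control and 0.0188% in MT against IAA, are so low that 0 calls in lists of this size lie near them. Of 8 genes for sigma factors and phage-type polymerases, 0 were called in MT against control, against 1.89% of all genes tested, with a median log2 fold change of -0.05. Their summed level was 1074 and 1110 CPM in MT, 1029 and 1058 CPM in IAA, and 1069 and 1125 CPM in control, so MT replicate 1 lay within the range of the other libraries. SIGE, a sigma factor of the bacterial-type polymerase that responds to light and stress, had the lowest p of this list in each of the 3 comparisons. It was at 192 and 181 CPM in MT, 168 and 167 CPM in IAA, and 199.8 and 199.0 CPM in control. Both IAA libraries lay below both control libraries, at a log2 fold change of -0.25 ± 0.06 (SE; adjusted p = 0.137, edgeR). The 13 genes for proteins associated with the bacterial-type polymerase summed to 807 and 851 CPM in MT, 846 and 915 CPM in IAA, and 849 and 847 CPM in control, lowest in MT replicate 1. With 0 called in each of the 3 comparisons, their median in MT against control was -0.05 with 2 of 13 positive, and without MT replicate 1 it was 7 of 13 positive. FSD3, an iron superoxide dismutase of that complex, was at 33.8 and 36.3 CPM in MT, 39.8 and 46.8 CPM in IAA, and 35.9 and 35.7 CPM in control.

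The summed levels of RNA-handling and partner proteins were also lowest in MT replicate 1, by small margins. The 25 genes for binding, processing, editing and decay of plastid RNA summed to 4024 and 4208 CPM in MT, 4142 and 4331 CPM in IAA, and 4158 and 4071 CPM in control. In MT against control 0 of 25 were called, against 1.89% of all genes tested, and the median was -0.06 with 4 of 25 positive. Without MT replicate 1 the median was -0.00223 with 12 of 25 positive. In IAA against control and MT against IAA 0 were called too, against 0.701% and 0.0188%. CP29, a chloroplast RNA-binding protein, was at 309.6 and 327 CPM in MT, 329 and 358 CPM in IAA, and 287 and 281 CPM in control, with a log2 fold change of 0.27 ± 0.07 (SE) in IAA against control (adjusted p = 0.158, edgeR). Of the 25 nuclear partners of plastid-encoded complexes, 0 were called in MT against control, against 1.89%, with a median of -0.06 and 4 of 25 positive, and 10 of 25 were positive without MT replicate 1. In IAA against control and MT against IAA 0 were called, against 0.701% and 0.0188%. LHCB4.2, a chlorophyll-binding antenna protein, had the lowest p of that list in this comparison. It was at 1998 and 2040 CPM in MT, 2258 and 2231 CPM in IAA, and 2280 and 2300 CPM in control, a log2 fold change of -0.20 ± 0.05 (SE; adjusted p = 0.142, edgeR). Of the mitochondrial genes 47 were tested and 0 were called in MT against control (1.89% of all genes), IAA against control (0.701%) or MT against IAA (0.0188%). Their median was 0.58 in MT against control and -0.09 without MT replicate 1.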

How the data were processed

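The deposited table holds unnormalized whole counts of reads for each gene and library. DESeq, HTSeq 0.6.1, TopHat2 2.0.12 and Bowtie2 2.2.3 are named in the submitters' processing notes, without their roles. The sources used here give no genome build, annotation, strand setting, RNA selection or treatment of reads that match several places. Where genes overlap or lie antisense, unstranded counting would not tell them apart. Columns were matched to samples by treatment and replicate number. A count of 3, taken as the floor, is 0.0458 to 0.0748 CPM.

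CPM here are counts over the library total. Genes were filtered with filterByExpr, scaled by TMM and tested with edgeR 4.0.16 (R 4.3.3, glmQLFit, glmQLFTest). Group was the only term, with 3 residual degrees of freedom. Errors marked SE were derived from this test, as the absolute log2 fold change divided by the square root of its F statistic. The procedure was also run on simulated counts with the same spread for all genes and no outlying library. That run does not cover a library such as MT replicate 1. Ratios between libraries have exact binomial counting intervals at 95%. No set test was run. Alternatives are in the closing section. Members and lists were chosen with earlier results of these data known. Genes named are mainly the 12 with the highest mean share of plastid counts and the codes with a name. The 3 highest and lowest fold changes without MT replicate 1 are named for MT against control and IAA against control. From each nuclear list on plastid functions, the gene named had the lowest p in MT against control or in IAA against control. The ends of MT against IAA and single root markers are not listed. Function classes, and genes chosen by symbol, could not be applied, because 82 codes had no name.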

Additional observations from a re-analysis of the deposited data

How the results depend on the processing

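All plastid and gene counts are at an adjusted p under 0.05. In MT against control, 0 plastid genes were called with all libraries, 6 with DESeq2, 6 without a filter and 0 to 46 when 1 library was left out; all genes called, 403, were 823 with DESeq2 and 112 to 447 when 1 was left out. The plastid median, 1.78, was 3.14 at a mean of at least 5 CPM, which leaves 15 plastid genes, 0.11 with DESeq2 without MT replicate 1 (an alternative chosen after seeing the data), and 0.12 to 2.66 when 1 library was left out. In IAA against control, plastid calls stayed at 0 in every alternative run. All genes called, 149, were 475 with DESeq2, 385 with DESeq2 without MT replicate 1, 268 without a filter, 81 in a fit of the 2 groups, and 17 to 109 when 1 library was left out, and the plastid median of 0.09 was 0.21 at 5 CPM. In MT against IAA, plastid calls were 0, then 4 with DESeq2 and 0 to 35 when 1 library was left out. All genes called, 4, were 255 with DESeq2, 59 with DESeq2 without MT replicate 1, 13 without a filter and 0 to 55 when 1 library was left out. The plastid median of 1.70 was 0.14 with DESeq2 without MT replicate 1 and 0.13 to 2.46 when 1 was left out.

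The log2 ratio of the plastid share was 1.82 for MT against IAA, and -0.024 (without MT replicate 1) to 3.66 when 1 library was left out. The fold change of ATCG00020 in IAA against control ran from -0.00056 to 0.50, and in MT against IAA from -0.076 to 5.49; with DESeq2 without MT replicate 1 it was -0.070 in MT against IAA. In MT against control, ATCG00430 ran from -0.21 to 1.90, ATCG00660 from -0.55 to 2.55 and ATCG00750 from -0.10 to 1.69, and with DESeq2 without MT replicate 1 they were at -0.21, -0.56 and -0.10. Upper-quartile and RLE factors, library totals alone, scaling without organelle genes and limma-voom changed no plastid call, although limma-voom gave fewer plastid genes at an unadjusted p under 0.05 (12 in place of 57 in MT against control, and 7 in place of 54 in MT against IAA). The differences between same-numbered libraries were weakly correlated across genes (-0.149 to 0.0328). With 1 such difference per group, these values cannot show whether the numbers pair the samples. With the replicate block 351, 137 and 5 genes were called in MT against control, IAA against control and MT against IAA. Of these 0 were plastid, and the plastid medians were 1.61, 0.08 and 1.40. Alternatives on the copies in the inverted repeat were not run, because the codes could not be paired. Depth also limits the plastid genes: their median was 0.781 to 1.02 CPM in the 5 libraries other than MT replicate 1.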
